A study of Mus musculus with 6 samples.

Results

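Guanylin signalling and the alkaline phosphatases were examined in the colon of mice that had lost Hnf4α from the intestinal epithelium. The group holds 7 genes, taken by name from the annotation of the array. Guca2a and Guca2b encode the ligands guanylin and uroguanylin, Gucy2c their receptor, Prkg2 the kinase that acts after it, and Alpi, Akp3 and Alpl 3 alkaline phosphatases. All 7 were measured, by 9 of the 45037 probe sets tested, out of 18193 genes that the array measured. Prkg2 had 3 probe sets and each other gene had 1. Where a gene had several, the brightest on average is reported and the others serve as a check.

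Total RNA of proximal colon from 3 control and 3 Hnf4a mutant littermates, all 1 year old, was hybridised to Affymetrix mouse genome arrays, with 1 mouse per array. The mutants carried loxP sites on both Hnf4a alleles and Cre under the Villin promoter, which is active in the epithelium of the gut. The controls are labelled wildtype, and the labels do not say whether they carried Cre or loxP sites. Every mouse received ketamine (300 mg/kg) and xylazine (40 mg/kg) before sacrifice. The RNA was of colon tissue and not of isolated epithelium, so Hnf4a was deleted from a part of the cells measured. Muscle and matrix signals differed between arrays and between the groups, most in mutant replicate 2, as given below. In such bulk RNA fewer cells of a type cannot be told apart from less RNA per cell.

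Hnf4a itself was at 12.23, 12.01 and 11.97 on the log2 scale in control replicates 1 to 3 and at 10.17, 10.09 and 10.15 in mutant replicates 1 to 3 (log2 difference, as mutants minus controls throughout, -1.94; SE 0.10; adjusted p = 0.000788 by limma). The labels give mutant replicates 2 and 3 as male and the other 4 mice as female. By RNA, the 3 controls were female and the 3 mutants male: Xist, which is transcribed from the inactive X chromosome, lay between 9.94 and 10.96 in controls and below 5.33 in mutants, and the Y-linked Eif2s3y was no higher than 3.16 in controls and no lower than 7.85 in mutants, the one labelled female included. Sex and genotype therefore cannot be told apart in any comparison that follows. In mutant replicate 2 the median of 10 smooth muscle markers stood at -3.95 and that of 10 fibroblast and matrix markers at -3.27 relative to the control mean, and the lowest such value in another mutant was -0.49. All mutants lay below all controls in 9 of the 10 smooth muscle and 3 of the 10 fibroblast and matrix markers (8.86% of all genes). None of these markers was called. For 12 gut epithelium markers (Epcam, Cdh1 and others) the median stood at 0.058, -0.012 and -0.064 in controls and at 0.047, 0.19 and 0.19 in mutants. Their mean log2 signal lay between 12.61 and 12.84. By limma at an unadjusted p of 0.05, 5 of the 12 passed as higher and 1 as lower (10% and 6.18% of all genes), and none was called.

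Guanylin and uroguanylin are small peptides that the gut epithelium secretes into the lumen. They bind guanylyl cyclase C, the product of Gucy2c, on the apical membrane of epithelial cells, which is also the receptor of a bacterial heat-stable enterotoxin. The cyclase makes cGMP, and the membrane-bound cGMP-dependent kinase II encoded by Prkg2 then favours chloride and bicarbonate secretion through the channel Cftr and restrains sodium uptake by the exchanger Slc9a3. Alkaline phosphatases are enzymes held on the outer face of the cell by a lipid (GPI) anchor. Those of the gut brush border remove phosphate from bacterial lipopolysaccharide and from extracellular nucleotides, while the tissue-nonspecific enzyme encoded by Alpl is known best from bone, liver and kidney.

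Uroguanylin, cGMP-dependent kinase II and the intestinal phosphatase Alpi were lower in every mutant than in every control, whereas guanylin, the receptor and the other phosphatases overlapped between the groups. The log2 differences of the lower genes were -1.97 for Alpi, -1.12 for Prkg2 and -0.66 for Guca2b, and those of the remaining 4 lay between 0.057 and 0.15. None of the 7 was called at an adjusted p under 0.05 by limma over all probe sets, where 0.226% of probe sets were called lower and 0.304% higher. With p not adjusted and taken at 0.05, 3 of the 7 passed as lower and 0 as higher, where 6.18% of all genes passed as lower and 10% as higher. All mutants lay below all controls in 3 of the 7 genes and above them in 0, where 8.86% of all genes lay below and 14.5% above. Of all genes, 60.4% had positive and 39.6% negative log2 differences. The medians were 0.057 for the 7 genes and 0.051 for all genes.

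**Figure D1:**
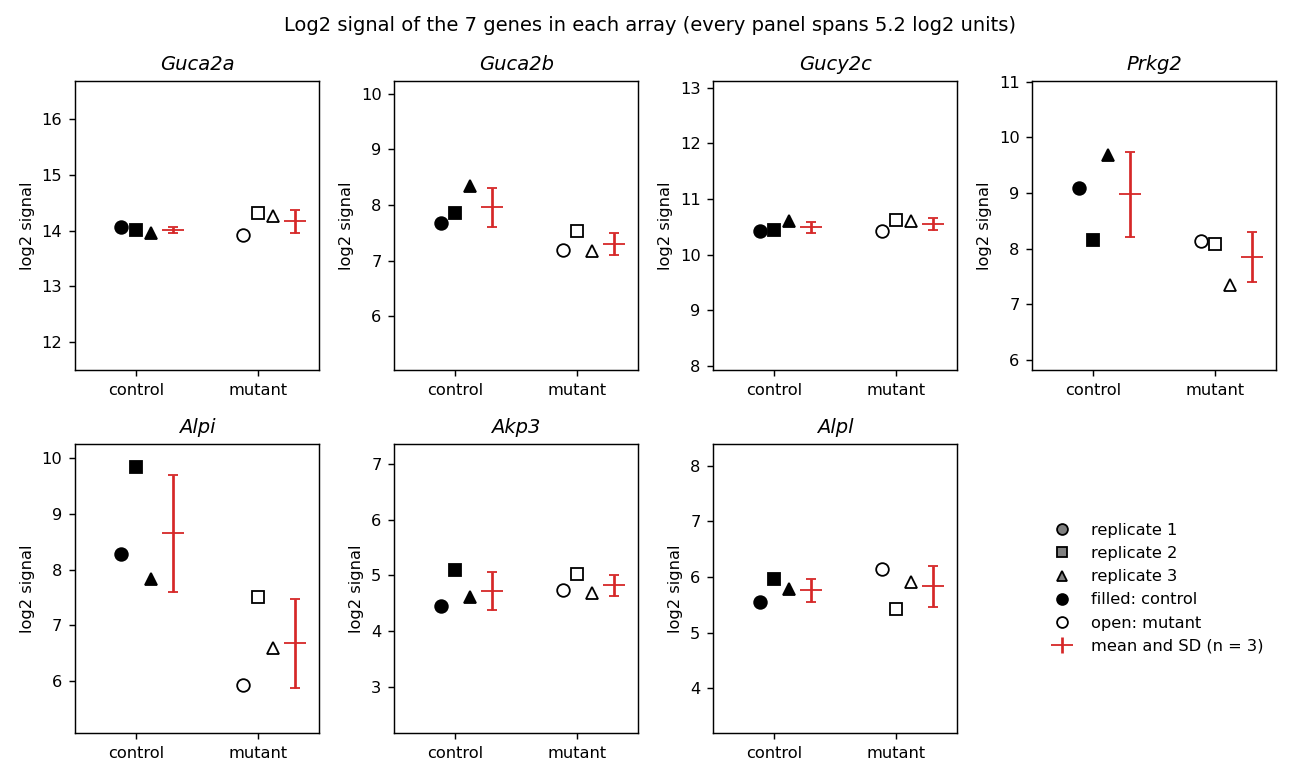
Log2 signal (vertical axis) of each of the 7 genes in control (filled symbols) and mutant arrays (open symbols), with the symbol shape giving the replicate number and the red marks the mean and SD of 3 arrays; all panels span the same number of log2 units. Guca2b, Prkg2 and Alpi are lower in the 3 mutants without overlap, with Alpi between 7.83 and 9.84 in controls and between 5.93 and 7.51 in mutants, while the other 4 genes overlap.

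Guca2a and Guca2b lie beside each other on mouse chromosome 4, with 17.1 kb and no other annotated gene between them (GRCm38.p6). Guca2a occupies bases 119637732 to 119639465 and Guca2b bases 119656601 to 119658945. The 250 bases before each start are shown because the peptides share a receptor and a locus while 1 of them overlapped between the groups and the other did not. Capitals mark CAAAG, the core of the sequence that HNF4 receptors bind, on either strand. The upstream stretch of Guca2a is chr4:119637482-119637731 on the plus strand and that of Guca2b chr4:119658946-119659195 on the minus strand, both from RefSeq and written 5′ to 3′.
Guca2a: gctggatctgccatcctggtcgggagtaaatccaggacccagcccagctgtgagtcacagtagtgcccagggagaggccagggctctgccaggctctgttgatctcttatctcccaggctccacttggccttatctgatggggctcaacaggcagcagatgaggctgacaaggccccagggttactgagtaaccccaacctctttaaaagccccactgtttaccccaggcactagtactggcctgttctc
Guca2b: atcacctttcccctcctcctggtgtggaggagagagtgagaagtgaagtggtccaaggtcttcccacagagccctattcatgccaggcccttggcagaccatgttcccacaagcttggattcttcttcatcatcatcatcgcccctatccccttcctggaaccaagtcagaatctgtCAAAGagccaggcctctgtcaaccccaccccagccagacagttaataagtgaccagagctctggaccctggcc
Guca2b held CAAAG from base -73 to -69, counted back from the gene start, and GTTAAT, the core of the HNF1 sequence, from -33 to -28. Neither sequence was found in the stretch of Guca2a. Both were found in 1 of the 2 stretches listed for Alpl, a gene that overlapped between the groups (log2 difference 0.066). There the HNF1 core lay from -51 to -46 on the opposite strand. The HNF4 core lay from -246 to -242 on the opposite strand and from -145 to -141. The other stretch of Alpl held the HNF4 core only, from -214 to -210. CAAAG stood in 48.6% and GTTAAT in 6.43% of the 32851 upstream stretches of this length in the table, and the matches are a description of letters. Letters in the stretches of Guca2a and Guca2b were identical at 53.2% of bases after alignment. That share was between 46.8% and 58.8% for all pairs of the 6 stretches at hand, which cover 5 of the 7 genes.

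Guca2a, the guanylin gene, gave a log2 signal of 14.06, 14.01 and 13.96 in control replicates 1 to 3 and of 13.92, 14.31 and 14.25 in mutant replicates 1 to 3. The mutants lay on both sides of the controls. The log2 difference was 0.15 (SE 0.125, 95% interval -0.15 to 0.45, adjusted p = 0.629 from limma). These signals were close to the highest on any array, between 14.40 and 14.55, so there was little room in the scale for a rise to be seen. With mutant replicate 1, the lowest array for this gene, left out, the log2 difference was 0.27 (95% interval 0.01 to 0.53). Its p from limma was then 0.044 unadjusted and 0.372 adjusted.

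Guca2b, the uroguanylin gene, gave 7.67, 7.86 and 8.35 in the controls and 7.19, 7.54 and 7.17 in the mutants. The groups did not overlap, but control replicate 1 and mutant replicate 2 were only 0.14 log2 units apart. Controls had a mean of 7.96 ± 0.35 and mutants of 7.30 ± 0.21 (SD, n = 3 each), so that the log2 difference was -0.66 (SE 0.20, 95% interval -1.12 to -0.20), or a ratio of 0.633. The adjusted p from limma was 0.251. Leaving out control replicate 3, the highest array, reduced the log2 difference to -0.47, and leaving out any other array gave between -0.80 and -0.59.

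Gucy2c, the receptor gene, had the smallest difference of the 7 between groups. It is annotated at bases 136697284 to 136781742 of chromosome 6. Its log2 signal was 10.43, 10.44 and 10.61 in controls and 10.42, 10.63 and 10.60 in mutants, so that both groups covered nearly the same range. The log2 difference was 0.057 (SE 0.11, 95% interval -0.19 to 0.31, adjusted p = 0.841).

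Prkg2, the gene of cGMP-dependent kinase II, lies at bases 98929773 to 99037375 of chromosome 5. Its log2 signal was 9.08, 8.16 and 9.68 in the controls and 8.13, 8.08 and 7.34 in the mutants. Control replicate 2 was 0.030 above mutant replicate 1, the closest approach of the groups among the 3 genes that did not overlap. Means of 8.97 ± 0.77 for controls and 7.85 ± 0.45 for mutants (SD, n = 3 each) gave a log2 difference of -1.12 (SE 0.40, 95% interval -2.07 to -0.18, adjusted p = 0.319), or a ratio of 0.459. The spread of the controls was of the same order as the difference, since they covered 1.52 log2 units.

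The dimmer probe sets of Prkg2 gave much the same picture. One read 8.65, 7.87 and 9.27 in controls and 7.73, 7.70 and 7.21 in mutants (log2 difference -1.05, SE 0.34, adjusted p = 0.288). In the other the values were 6.94, 6.76 and 7.75 in controls and 6.29, 6.53 and 5.74 in mutants (log2 difference -0.96, SE 0.30, adjusted p = 0.275). Control replicate 2 was the lowest control in all 3 probe sets, and mutant replicate 3 the lowest of all arrays. These probe sets read the same RNA of the same mice, so their likeness is no further replication. Without control replicate 2 the log2 difference of the brightest probe set was -1.53 (adjusted p = 0.0837), and without control replicate 3 it was -0.77 (adjusted p = 0.614).

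**Figure D2:**
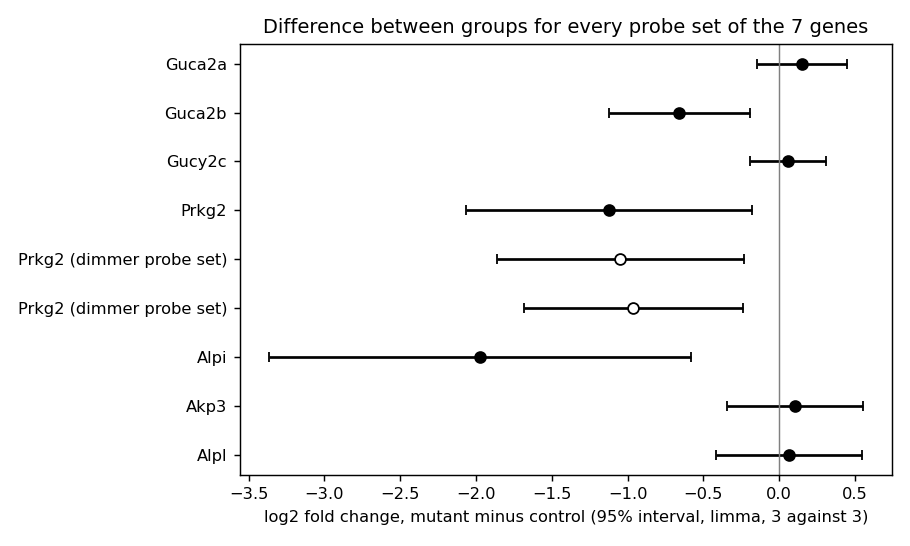
Mean log2 difference, mutants minus controls (horizontal axis) for all 9 probe sets of the 7 genes, with 95% intervals from limma for each probe set alone; filled circles, the brightest probe set of a gene; open circles, dimmer ones of Prkg2. The intervals of Guca2b, of the 3 Prkg2 probe sets and of Alpi lie below 0, from -3.36 to -0.58 for Alpi, and none of these differences passed adjustment over all probe sets.

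Alpi and Akp3 are neighbours on chromosome 1, 23.3 kb apart with no annotated gene between them. Alpi, at bases 87098002 to 87101606, encodes the intestinal phosphatase found along the whole gut, and Akp3, at bases 87124954 to 87128728, the enzyme known from the duodenum. The 250 bases before each start are shown because of these neighbours only Alpi was lower in the mutants without overlap, and because the upstream stretch of Alpi holds a full HNF4 sequence. The stretch of Alpi is chr1:87101607-87101856 on the minus strand and that of Akp3 chr1:87124704-87124953 on the plus strand, from RefSeq (GRCm38.p6). Capitals mark CAAAG on either strand, together with the letters that extend it to CAAAGTC or to the HNF4 sequence CAAAGTCCA.
Alpi: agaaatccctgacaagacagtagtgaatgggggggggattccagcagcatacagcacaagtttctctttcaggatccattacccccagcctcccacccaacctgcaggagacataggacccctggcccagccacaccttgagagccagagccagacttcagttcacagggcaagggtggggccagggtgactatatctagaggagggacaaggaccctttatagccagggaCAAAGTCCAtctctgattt
Akp3: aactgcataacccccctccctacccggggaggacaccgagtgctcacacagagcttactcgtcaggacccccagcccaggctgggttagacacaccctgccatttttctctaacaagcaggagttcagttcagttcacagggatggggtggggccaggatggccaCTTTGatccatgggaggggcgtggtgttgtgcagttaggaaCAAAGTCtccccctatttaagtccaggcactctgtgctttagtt
Alpi held CAAAGTCCA on its own strand from base -19 to -11. This sequence, searched on both strands, stood in 126 of 32851 upstream stretches, or 0.384%. It was in no other of the stretches at hand for 5 of the 7 genes, and none was at hand for Gucy2c and Prkg2. Akp3 held its first 7 letters, CAAAGTC, from -44 to -38, and a further CAAAG on the opposite strand from -85 to -81. Of the 2 stretches listed for Alpl, 1 held CAAAGTC, from -214 to -208. CAAAGTC was added to the search after the sequences had been read, contains CAAAG, and stood in 3.84% of all stretches. TTTATG, a sequence bound by CDX factors (10.8% of all stretches), was in none of the 6 upstream stretches that the table held for 5 of the 7 genes. No binding was measured here, and a match does not show a site in use.

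Alpi gave the widest difference of the 7 genes. The arrays read 8.28, 9.84 and 7.83 in control replicates 1 to 3 and 5.93, 7.51 and 6.59 in mutant replicates 1 to 3. The groups were 0.32 log2 units apart at their closest, between control replicate 3 and mutant replicate 2, and each group was widely spread, over 2.01 and 1.59 log2 units. Controls averaged 8.65 ± 1.05 and mutants 6.68 ± 0.80 (SD, n = 3 each), which gave a log2 difference of -1.97 (SE 0.59, 95% interval -3.36 to -0.58), or a ratio of 0.255. The adjusted p of Alpi from limma was 0.251. Control replicate 2 was the highest array, and without it the log2 difference was -1.38 (adjusted p = 0.185), while it was -2.39 without mutant replicate 2 (adjusted p = 0.255).

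Akp3 was dim in all arrays, at 4.44, 5.10 and 4.60 in controls and 4.74, 5.03 and 4.68 in mutants. All mutants lay within the range of the controls. The log2 difference was 0.10 (SE 0.19, 95% interval -0.34 to 0.55, adjusted p = 0.837). The Y-linked genes, which female tissue cannot transcribe, read between 2.75 and 4.01 in the controls, so that the Akp3 signal stood little above that of a probe set without a target. Its sign turned without control replicate 1, where the log2 difference was -0.033, and without mutant replicate 2, where it was -0.002.

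Alpl, the tissue-nonspecific phosphatase gene at bases 137741731 to 137796384 of chromosome 4, was at 5.55, 5.96 and 5.78 in controls and 6.15, 5.42 and 5.92 in mutants. Mutant replicate 1 was the highest and mutant replicate 2 the lowest of all arrays. The log2 difference was 0.066 (SE 0.20, 95% interval -0.42 to 0.55, adjusted p = 0.907). When mutant replicate 2, with its low muscle and matrix signals, was omitted, it was 0.27 (adjusted p = 0.695). It was -0.041 without control replicate 1 and -0.094 without mutant replicate 1. The related phosphatase gene Alppl2, from a list of ecto-phosphatases, gave 0.14 (SE 0.11, adjusted p = 0.612) and, on its dimmer probe set, 0.022 (SE 0.12).

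With single arrays left out, Guca2b and Alpi kept an unadjusted p of 0.05 or less in all 6 cases, and Prkg2 in 3 of 6. The exceptions for Prkg2 were the fits without control replicate 1 (log2 difference -1.07), control replicate 3 (-0.77) and mutant replicate 3 (-0.87). None of the 3 genes was called at an adjusted p under 0.05 in any of these fits. Guca2a passed as higher at the unadjusted p in 1 of them, without mutant replicate 1, and was not called. The share of all genes passing in these fits was not counted. An exact permutation test of 3 mice against 3 cannot give a two-sided p below 0.1.

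**Figure D3:**
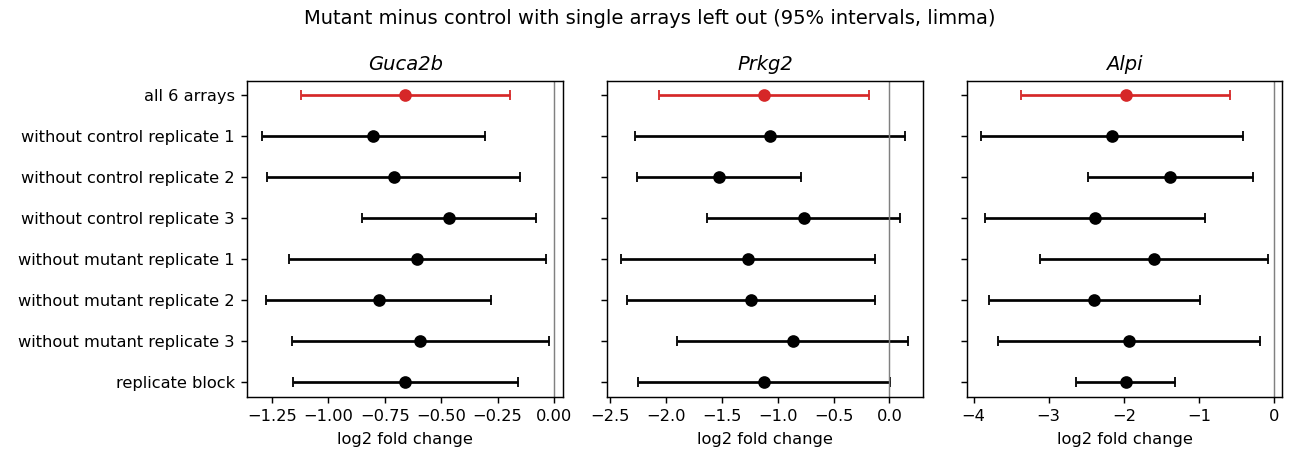
Mean log2 difference, mutants minus controls (horizontal axis, its scale differing between panels) for Guca2b, Prkg2 and Alpi with all 6 arrays (red), with each array left out in turn and with the replicate number as a block (black); bars are 95% intervals from limma. All values lie below 0, from -0.80 to -0.47 for Guca2b, from -1.53 to -0.77 for Prkg2 and from -2.39 to -1.38 for Alpi, and the intervals of Prkg2 reach past 0 in 4 of these 8 fits.

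The 3 genes did not order the arrays alike. Among controls, Alpi was highest in replicate 2, where Prkg2 was lowest, whereas Guca2b and Prkg2 were both highest in replicate 3. Among mutants, Alpi was lowest in replicate 1 and Prkg2 and Guca2b in replicate 3. Over the 6 arrays Pearson's r was 0.83 between Guca2b and Prkg2, 0.63 between Guca2b and Alpi and 0.31 between Prkg2 and Alpi. These values describe 6 arrays in which all 3 genes were lower in 1 group, and carry no test.

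Markers of the cells that could carry these genes were compared in the same way. The median of 9 surface colonocyte markers (Slc26a3, Car1 and others), relative to the control mean, was between -0.16 and 0.17 in controls and at -0.43, 0.18 and 0.12 in mutant replicates 1 to 3. Of the 9, Car4, a membrane carbonic anhydrase, was called lower and none was called higher. With p from limma not adjusted and taken at 0.05, 4 passed as lower and 0 as higher (6.18% and 10% of all genes). All mutants lay below all controls in 4 of the 9 and above them in 1 (8.86% and 14.5% of all genes). Alpi was lowest in mutant replicate 1, in which this median was also lowest. Rbp2, a retinol-binding protein from the list of small intestinal enterocyte markers, ordered the arrays much as Alpi did, at 8.08, 9.47 and 7.32 in controls and 6.52, 8.35 and 7.10 in mutants (log2 difference -0.97, adjusted p = 0.544). The median of the 7 measured markers of that list did not. It was at -0.21, -0.054 and 0.13 in controls and at -0.20, -0.074 and -0.325 in mutants. The part of surface colonocytes or enterocytes in the Alpi values was not tested.

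Of 7 small intestinal enterocyte markers, 6 were negative and 2 had an unadjusted p of 0.05 or less as lower (39.6% and 6.18% of all genes). None was called. Fabp2, a fatty acid binding protein also made in colon, went from a mean of 13.04 to 10.57 (adjusted p = 0.0731) and Apoa4, an apolipoprotein, from 6.09 to 5.53 (adjusted p = 0.272), both without overlap. Slc5a1, the sodium-glucose transporter, was at 10.11 and 9.95 and Treh, trehalase, at 4.24 and 4.09. Lct and Apoc3, which define these cells, were the 2 markers as dim as Y-linked genes in female tissue, with means from 3.83 to 4.01.

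For B and plasma cells the median of 7 markers, relative to the control mean, was at -0.59, 0.62 and 0.15 in controls and at -1.21, -1.11 and -0.995 in mutant replicates 1 to 3. All 7 were negative and 6 had an unadjusted p of 0.05 or less (39.6% and 6.18% of all genes), although none was called. Mzb1, of antibody-secreting cells, went from a mean of 8.97 to 6.95 (adjusted p = 0.220). This median separated the groups, as Guca2b, Prkg2 and Alpi did. So did the medians of smooth muscle and endothelial markers, also lower in all mutants, and that of neutrophil markers, higher in all mutants. For 10 smooth muscle markers the median was at -0.015, -0.009 and 0.006 in controls and at -0.29, -3.95 and -0.47 in mutants. The part of any of these cells in the values of Guca2b, Prkg2 and Alpi was not tested. For 8 endothelial markers the median was at 0.051, -0.018 and -0.057 in controls and at -0.18, -1.32 and -0.36 in mutants. In 5 of these 8 all mutants lay below all controls (8.86% of all genes). For 8 macrophage markers the median was at -0.25, -1.70 and -0.11 in mutants. Both medians were lowest in mutant replicate 2.

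The median of 10 goblet cell markers was at -0.063, -0.10 and 0.22 in controls and at 0.13, -0.078 and -0.21 in mutants. It was highest in control replicate 3 and lowest in mutant replicate 3, the arrays in which Prkg2 was also highest and lowest. Muc2, the gel-forming mucin of these cells, was between 13.72 and 14.42 in all 6 arrays. None of the 10 was called, and Clca1, a secreted goblet cell protein, had the smallest p of them (log2 difference -0.94, SE 0.22, adjusted p = 0.167). For the neutrophil list, whose cells are known to carry Alpl, the median stood between -0.12 and 0.13 in controls and between 0.14 and 0.18 in mutants, at a mean log2 signal between 4.64 and 5.04. How far cell composition entered the values of Prkg2, Alpi or Alpl was not tested.

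**Figure D4:**
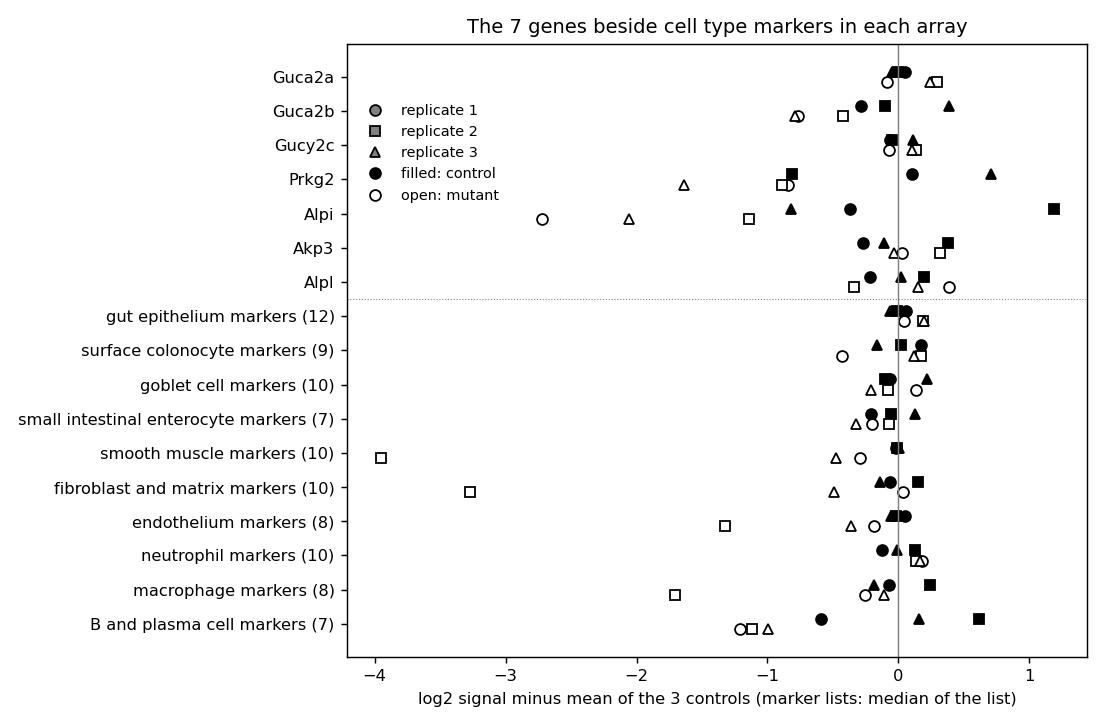
Deviation of each array from the control mean in log2 units (horizontal axis), for the 7 genes above the dotted line and for the median of marker lists below it, with the number of measured genes in brackets. Controls are filled, mutants open, and the shape gives the replicate. The smooth muscle median of mutant replicate 2 is -3.95 and its fibroblast and matrix median -3.27, but it is within 0.19 of the control mean for gut epithelium, and Alpi lies between -2.73 and -1.14 in the mutants.

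The other genes of the pathway came from lists that were drawn up by function. Of 11 measured genes of ion transport that guanylin signalling acts on, or that hold the transporters in place, 10 were negative, as were 39.6% of all genes (median -0.33, against 0.051 over all genes). None was called in either direction, and an unadjusted p of 0.05 or less was reached by 5 lower genes and by 1 that was positive, where 6.18% of all genes passed as lower and 10% as higher. Pdzd3, a PDZ protein that binds the tail of guanylyl cyclase C, had the smallest p, with 7.66, 7.69 and 7.06 in controls and 4.97, 6.06 and 5.65 in mutants. The 3 mutants were all at least 1 log2 unit below the lowest control. Its log2 difference was -1.91 (SE 0.30, adjusted p = 0.0597), and -2.16 without mutant replicate 2 (adjusted p = 0.0528). With array weights in limma Pdzd3 was called lower (-1.85, adjusted p = 0.0314). It also passed in limma when all probe sets of each gene were averaged before the test (adjusted p = 0.0376). Pdzd3 has 1 probe set, so its own values were unchanged there and only what was fitted beside it differed.

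Slc26a6, an anion exchanger, gave -0.39 (SE 0.088, adjusted p = 0.150), and Slc9a2, a sodium-hydrogen exchanger of the apical membrane, -0.72 (SE 0.18, adjusted p = 0.181). The targets that cGMP-dependent kinase II is known for went opposite ways without passing the test. Cftr was between 8.96 and 9.16 in controls and between 9.23 and 9.52 in mutants (0.32, SE 0.11, adjusted p = 0.312). Slc9a3, which is also among the surface colonocyte markers, was at 8.98, 8.15 and 9.52 in controls and 8.04, 7.34 and 8.14 in mutants (-1.05, SE 0.37, adjusted p = 0.318), and the mean of its 2 probe sets gave -0.60. As with Prkg2, control replicate 2 was the lowest control and close to the highest mutant. Slc26a3, the main chloride-bicarbonate exchanger of colon, gave -0.069 (SE 0.47), -0.26 without mutant replicate 2 and 0.19 with array weights, with 11.24 in control replicate 3 against 12.79 and 12.81 in the other controls.

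Of 14 other genes of cGMP signalling, which includes the soluble cyclase and the kinase of smooth muscle, 10 were negative, against 39.6% of all genes, with a median of -0.40, and none passed the test. Pde5a, a phosphodiesterase that degrades cGMP (-0.62, SE 0.22, adjusted p = 0.314), and the subunits of soluble guanylyl cyclase, Gucy1a1 (-1.87, SE 0.69, adjusted p = 0.335) and Gucy1b1 (-1.19, SE 0.44, adjusted p = 0.337), had the smallest p. All 3 were lowest in mutant replicate 2, where muscle and matrix markers were also lowest, with Gucy1a1 at 4.24 there against 7.20 and 6.48 in the other mutants. Without that array they gave -0.40, -1.01 and -0.63. Prkg1, the kinase known from smooth muscle, went from -0.86 to -0.27 with it left out, whereas Prkg2 went from -1.12 to -1.24, Guca2b from -0.66 to -0.78 and Alpi from -1.97 to -2.39. The part of muscle and matrix cells in the values of the cGMP genes was not tested.

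**Figure D5:**
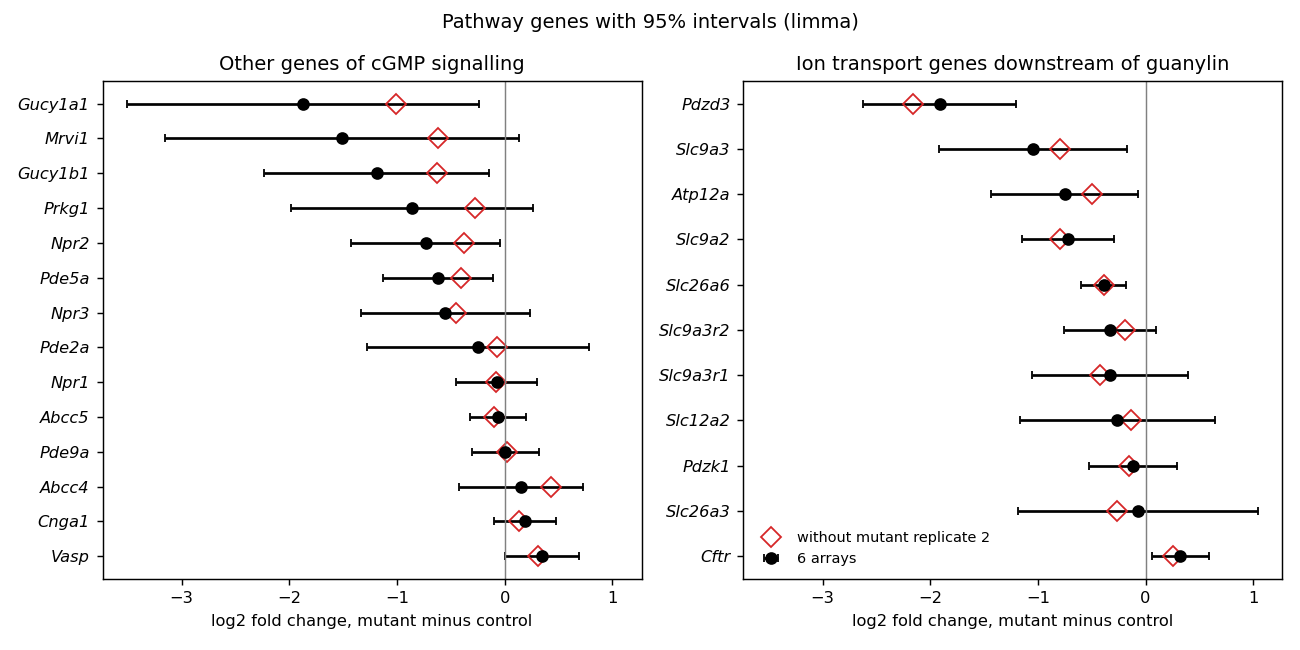
Mean log2 difference, mutants minus controls (horizontal axis) for 14 other genes of cGMP signalling (left) and 11 ion transport genes (right), with 95% intervals from limma for 6 arrays (black) and the value without mutant replicate 2 (red diamonds). On the left the most negative values shrink without that array, as for Gucy1a1 from -1.87 to -1.01, while Pdzd3 on the right goes from -1.91 to -2.16.

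Among 12 measured ecto-phosphatases and genes of phosphate or pyridoxal handling, 5 were positive and 7 negative (60.4% and 39.6% of all genes). Their median was -0.13, and none was called. By limma at an unadjusted p of 0.05, 2 passed as higher and 3 as lower (10% and 6.18% of all genes). Entpd5, a nucleoside diphosphatase, was between 10.50 and 10.68 in controls and between 10.87 and 11.21 in mutants (log2 difference 0.43, SE 0.12, adjusted p = 0.220). Slc34a2, a sodium-phosphate cotransporter, gave -0.63 (SE 0.23, adjusted p = 0.337) and Pdxk, pyridoxal kinase, -0.60 (SE 0.22, adjusted p = 0.337). Pdxk gave -0.38 without mutant replicate 2 and -0.21 as the mean of its 3 probe sets. Nt5e, which like alkaline phosphatase removes phosphate from extracellular AMP, gave -0.63 (SE 0.36, adjusted p = 0.495) and was lowest in mutant replicate 2. Without that array Nt5e gave -0.22, and the mean of its 3 probe sets gave -0.18.

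Genes that build the GPI anchor, on which alkaline phosphatases are held, mostly had positive differences, and none was called. Of 16 genes, 14 were positive, as were 60.4% of all genes (median 0.23, against 0.051 over all genes), and in 7 the 3 mutants lay above the 3 controls, as in 14.5% of all genes. Pgap1, which removes an acyl chain from the inositol of the anchor, was at 7.55, 7.69 and 6.62 in controls and 8.37, 8.83 and 9.05 in mutants (1.46, SE 0.31, adjusted p = 0.123), and its dimmer probe set gave 1.60 (SE 0.26, adjusted p = 0.0634). Pigb, a mannosyltransferase (0.43, SE 0.097, adjusted p = 0.144), and Piga, of the first step of synthesis (0.57, SE 0.15, adjusted p = 0.200), followed by p.

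Of 12 measured transcription factors of enterocyte genes, Hnf4a was called lower and no other was called. Its paralog Hnf4g gave 0.21 (SE 0.33, adjusted p = 0.807), and its sign turned without mutant replicate 2 (-0.115) and with array weights (-0.108). Cdx1 (0.24, SE 0.13, adjusted p = 0.470) and Thra, a thyroid hormone receptor (-0.19, SE 0.12, adjusted p = 0.533), had the smallest p after Hnf4a, with Cdx1 at 0.15 when mutant replicate 2 was omitted. Klf4 and Cdx2, both known to act on the Alpi promoter, gave 0.056 (SE 0.14) and 0.13 (SE 0.11), or 0.007 and 0.082 with mutant replicate 2 omitted.

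The genes whose log2 signals followed each of the 7 most closely over the 6 arrays were sought among 2569 genes that ranged over at least 1 log2 unit. For Alpi they were Akr1c14, an aldo-keto reductase (Pearson's r 0.971), and Tm4sf5, a tetraspan membrane protein (0.970), both without a call between the groups (adjusted p = 0.187 and 0.353). Prkg2 was followed by 9130208D14Rik (0.996) and Rep15, a Rab15 effector (0.993), with log2 differences of -0.91 and -0.87. Guca2b was followed by Slc23a3 (0.971) and Dio1, a thyroid hormone deiodinase (0.955), at -1.09 and -1.05. For Guca2a the closest were Zfp772 (0.982) and Pde8b, a cAMP phosphodiesterase (0.972), and for Gucy2c 5830428M24Rik (0.887) and Cacna2d2 (0.785). Akp3 was closest to Haspin (0.961) and Ocel1 (0.941), and Alpl to Ly6d (0.918) and Mrc2, a collagen receptor of stromal cells (0.916), which was lowest in mutant replicate 2 as Alpl was. The highest of so many correlations over 6 arrays is high by choice, and these names are a description with no test.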

How the data were processed

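Proximal colon RNA of 3 control and 3 mutant mice was measured on 6 single-colour arrays, 1 per mouse. Normalization was by RMA, done by the authors (version not given in the sources used here), and the authors deposited log2 signals per probe set, which were used as deposited. The groups and replicate numbers came from the sample titles. The 64 control probes were dropped, and the other 45037 probe sets, of which 34945 named 1 gene, 932 several and 9160 none, were fitted with limma 3.58.1 (R 4.3.3; lmFit and eBayes), mutant minus control. P-values were adjusted over all probe sets by the Benjamini-Hochberg method, with calls at an adjusted p under 0.05, and 95% intervals are for single probe sets. Medians per array lay between 5.43 and 5.53. The number of arrays limits the precision.

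The study's methods name SAM, which was run as an alternative (unadjusted p, over the 20 assignments of 3 and 3 arrays). Other alternatives were array weights, a trended and robust variance, repeated quantile normalization, median centring, a filter on dim probe sets, the replicate block, other probe sets of a gene, and each array left out. A fit without probe sets of X and Y genes was chosen after the data had been seen. The 7 genes and all lists were chosen with earlier results of these arrays known. The text names, of each pathway list, called genes and the 3 with the smallest p, and per member the 2 genes of highest Pearson correlation. Slc9a3 and Cftr, Prkg1, Hnf4g, Klf4, Cdx2, Nt5e, Alppl2, Slc26a3 and the marker genes named singly fall outside that rule and were chosen with values seen. Of the 72 pathway genes listed, 65 were measured. Upstream sequences came from the RefSeq table (GRCm38.p6), which held 5 of the 7 genes. The fit was tested on simulated data with independent noise, which did not hold the sex and tissue differences of these arrays.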

Additional observations from a re-analysis of the deposited data

How the results depend on the processing

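The direction of Guca2a, Guca2b, Gucy2c, Prkg2 and Alpi held in all settings run, and none of the 7 genes was called at an adjusted p under 0.05 in any limma fit. By SAM at an unadjusted p of 0.05 or less, Guca2b (-0.659), Prkg2 (-1.123) and Alpi (-1.973) passed, so that 3 members passed as lower and 0 as higher. Passing at this unadjusted p is not a call as defined above. Of the 65 pathway genes measured, Hnf4a not counted among those passing, 12 passed as lower and 8 as higher. Over the array 5543 of the 45037 probe sets passed, in either direction. By limma at the same unadjusted p, 6.18% of all genes passed as lower and 10% as higher. The log2 differences ran with single arrays left out from 0.075 to 0.270 for Guca2a, -0.801 to -0.465 for Guca2b, 0.017 to 0.122 for Gucy2c, -1.529 to -0.770 for Prkg2, -2.391 to -1.379 for Alpi, -0.033 to 0.294 for Akp3 and -0.094 to 0.270 for Alpl. Akp3 turned negative without control replicate 1 (-0.033) and without mutant replicate 2 (-0.002), and Alpl without control replicate 1 (-0.041) and without mutant replicate 1 (-0.094). Over all limma settings the lowest adjusted p was 0.114 for Guca2b, 0.0837 for Prkg2 and 0.0848 for Alpi. Apart from Hnf4a, no pathway gene was called in the fit of 6 arrays, and 1, Pdzd3, was called lower with array weights or with the mean of all probe sets per gene. The latter left the values of Pdzd3, which has 1 probe set, unchanged. The 239 probe sets called became 599 with array weights, 62 with the replicate block and between 39 (without control replicate 1) and 336 (without control replicate 2) with single arrays left out; without control replicate 3 they were 92, without mutant replicate 2 147 and without mutant replicate 3 52. The cause of these changes was not tested.

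Arrays of the same replicate number did not deviate together (correlations of -0.025, 0.25 and -0.15 for replicates 1, 2 and 3), so the numbers were not taken as pairs. With the replicate block Alpi had -1.97 (standard error 0.25, adjusted p = 0.0848), Prkg2 -1.12 (0.335) and Guca2b -0.66 (0.251). Only 2 of the 3 lower genes, Guca2b and Alpi, then had an unadjusted p of 0.05 or less. Without the probe sets of X and Y genes no member was called. Guca2a lies near the top and Akp3 near the bottom of the signal range, which limits what these arrays can show for either.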
